A study of Mus musculus with 24 samples.

Results

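The enzymes of de novo lipogenesis and their regulators were examined in mouse liver and liver tumors. The group comprised 8 genes, *Srebf1*, *Thrsp*, *Acly*, *Me1*, *Acaca*, *Fasn*, *Elovl6* and *Scd1*, and was formed by taking each array probe whose annotated gene symbol was among these names. This gave 10 of the 25697 probes, and all 8 genes were among the 8969 genes that were detected and tested. The arrays profiled 9-month-old male C57BL/6J mice that had received a single injection at day 15. Large tumors came from *Chop*-/- mice (n = 2) and wild-type mice (n = 3) given 25 mg/kg of the liver carcinogen diethylnitrosamine (DEN). Whole liver came from DEN-treated *Chop*-/- mice (n = 7) and wild-type mice (n = 6), and from PBS-injected *Chop*-/- mice (n = 3) and wild-type mice (n = 3). *Chop*-/- mice carried a constitutive, backcrossed deletion of most of the coding sequence of CHOP, a stress-induced transcription factor, in every tissue. DEN-treated livers contained both nodules and uninvolved tissue, and whether any tumor came from a mouse whose whole liver was also profiled was not given in the sources used here.

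De novo lipogenesis turns surplus carbohydrate into fatty acids, and the liver is one of its main sites. Citrate exported from mitochondria is cleaved to acetyl-CoA, which is carboxylated to malonyl-CoA and polymerized to palmitate at the expense of NADPH, and palmitate is then lengthened and desaturated before it enters triglycerides and membranes. Insulin acting through SREBP-1c, glucose acting through ChREBP, and thyroid hormone raise the transcription of these enzymes, whereas fasting lowers it, and many liver tumors are known to express them strongly.

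Per array, 8953 to 11248 probes were detected (detection p under 0.01). Arrays of 1 group correlated with each other at 0.929 or more, the lowest value being that between both *Chop*-/- tumors. The array names fall into sets A, B and C of 8 arrays, and tumors of both genotypes shared a set only in B, with 1 of each. *Ddit3*, which encodes CHOP, was detected on no *Chop*-/- array and on every wild-type array. The tissue label fit the markers, since the summed signal of 13 hepatocyte markers was 233000 to 244000 in *Chop*-/- tumors, 229000 to 254000 in wild-type tumors and 202000 to 247000 in the whole livers. At an adjusted p under 0.05, *Chop*-/- tumors had 1 of these markers higher and 0 lower than their DEN livers. Wild-type tumors had 3 higher and 2 lower than DEN livers, and 4 higher and 2 lower than PBS livers. The shares of all genes are given below. Fat tissue also makes fatty acids, and of the adipocyte markers *Adipoq*, *Plin1*, *Retn*, *Lipe* and *Fabp4* were detected on 0 arrays and *Lep* on 1. Only *Cidec* and *Pparg*, which fatty hepatocytes also express, could be tested. Their summed signal was 113 to 441 in *Chop*-/- tumors and 318 to 819 in their DEN livers, with 1 of 2 lower at an adjusted p under 0.05. In homogenized tissue, fewer cells of a type and less RNA per cell cannot be told apart.

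The lipogenesis genes did not move as a block in tumors. *Thrsp* was lower in tumors of both genotypes than in the matching DEN-treated livers, with log2 differences of -3.55 in *Chop*-/- tumors and -2.08 in wild-type tumors. *Acly* and *Acaca*, which make acetyl-CoA and malonyl-CoA, were higher in wild-type tumors by 0.89 and 0.96, and *Srebf1* fell by 1.13 in *Chop*-/- tumors. The *Srebf1* call rested on 1 of the 2 tumors. None of the 8 genes passed between tumors of both genotypes, nor when the change from DEN liver to tumor was compared between genotypes. *Me1*, *Fasn*, *Elovl6* and *Scd1* passed the test in no comparison. In whole liver, neither *Chop* deletion nor DEN treatment moved any of the 8 genes past the threshold. Levels below are normalized log2 intensities and fold changes are differences between them, so that a difference of 1 is a doubling; the threshold was an adjusted p under 0.05 from a limma model of all 24 arrays.

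**Figure D1:**
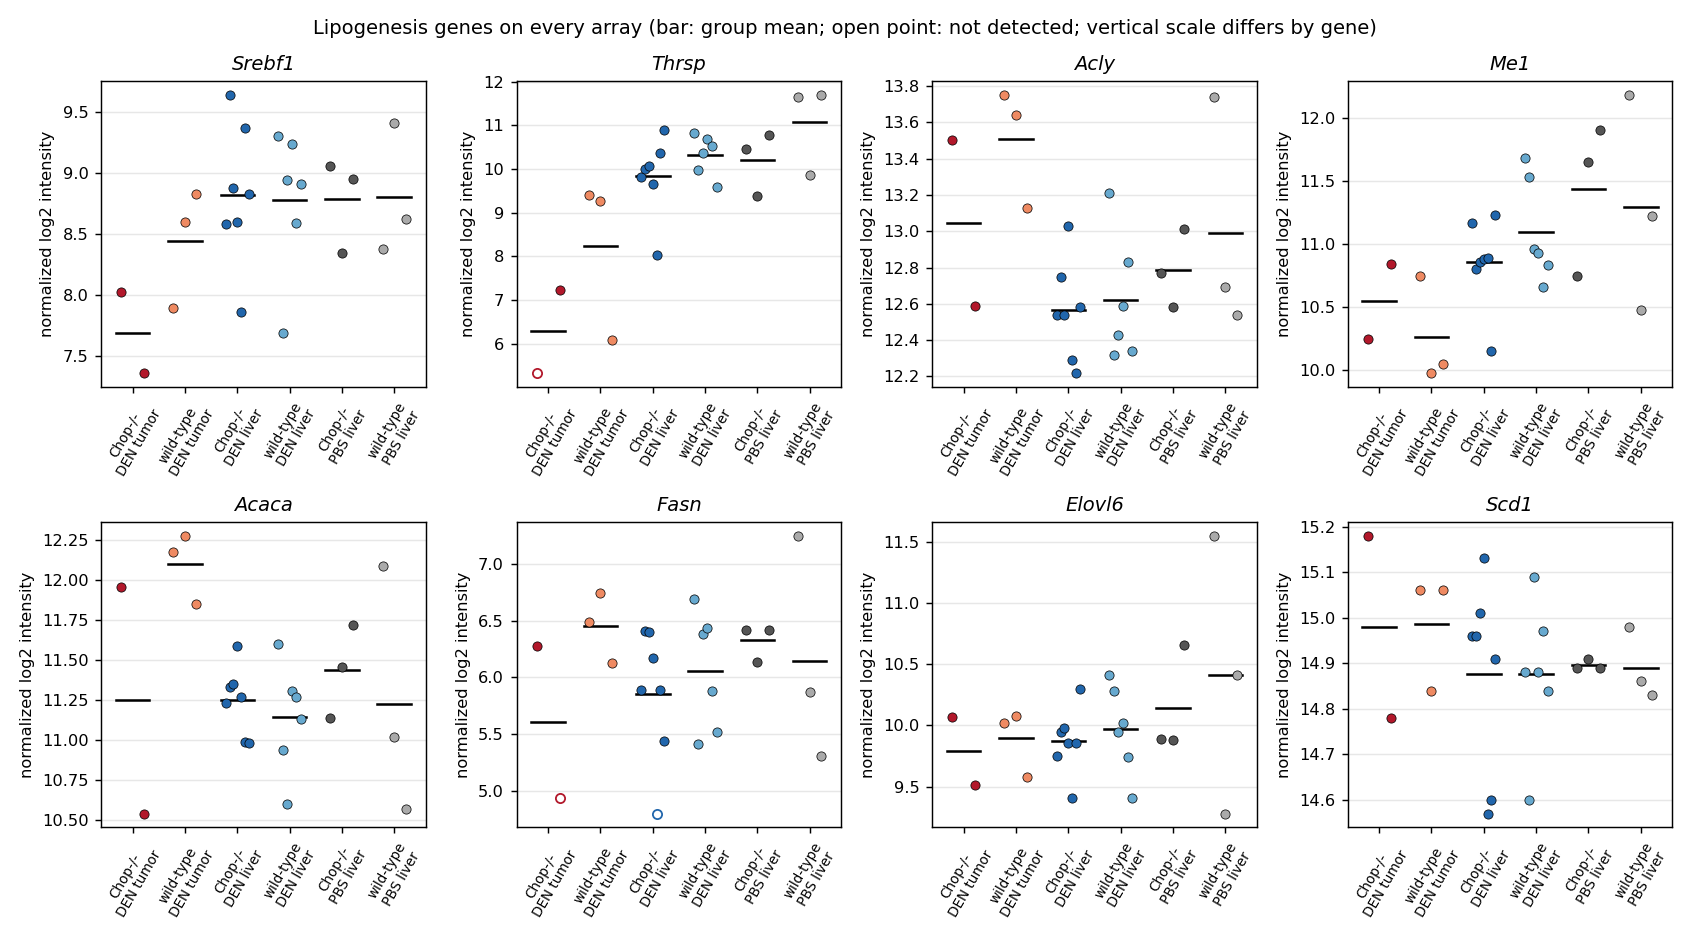
Normalized log2 intensity of the 8 lipogenesis genes on each of the 24 arrays, by group. Each point is an array, the bar is the group mean, open points were not detected, and each panel has its own scale. Thrsp has its lowest group means in the tumors, Acly and Acaca have their highest group mean in wild-type tumors, and Scd1 stays between 14.57 and 15.18.

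*Srebf1* encodes SREBP-1, the insulin-responsive transcription factor that drives most enzymes of the pathway. Its level was 8.02 in the set B and 7.36 in the set C *Chop*-/- tumor, against 7.86 to 9.64 (median 8.83) in *Chop*-/- DEN livers. Wild-type tumors had 7.89, 8.60 and 8.83, against 7.69 to 9.30 (median 8.93) in wild-type DEN livers. One *Chop*-/- tumor thus lay below the livers and the other within their range. *Srebf1* fell by 1.13 (standard error 0.40, adjusted p = 0.0281, limma) in *Chop*-/- tumors, and its exact permutation p was 0.0833 (2-sided). The call rested on the set C tumor, since without it the difference was -0.80 (adjusted p = 0.308), and the adjusted p was 0.265 with array weights, 0.0546 with no filter on dim probes and 0.0857 on the authors' values with the replicate block. Within set B the difference was -0.72 and within set C -1.33. PBS-treated livers averaged 8.79 ± 0.39 in *Chop*-/- and 8.80 ± 0.54 in wild-type mice (SD, n = 3 each), and a second *Srebf1* probe was detected on 0 arrays.

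*Thrsp* encodes Spot 14, a small regulator of lipogenic flux that responds to thyroid hormone and carbohydrate, and it had the widest range of the group. Its level was 5.33 in the set B *Chop*-/- tumor, where it was not detected, and 7.23 in the set C tumor, against 8.02 to 10.89 (median 10.01) in *Chop*-/- DEN livers. The wild-type tumors had 9.40 and 9.26 in set A and 6.08 in set B, against 9.58 to 10.83 (median 10.45) in wild-type DEN livers. Tumors therefore lay below every DEN-treated liver of their genotype. *Thrsp* fell by 3.55 in *Chop*-/- tumors (standard error 0.72, adjusted p = 0.000456, limma), which is 11.8-fold, with an exact permutation p of 0.0278, the smallest that 2 samples against 7 allow. In wild-type tumors it fell by 2.08 (standard error 0.64, adjusted p = 0.0206, limma), which is 4.23-fold, with an exact permutation p of 0.0119, the smallest that 3 against 6 allow. The 2 set A tumors lay close to the livers, and without the set B tumor the difference was -0.995 (adjusted p = 0.287). Within array sets it was -1.07 in A and -4.46 in B for wild-type tumors, and -2.535 in C for *Chop*-/- tumors. The undetected set B *Chop*-/- tumor gives no exact difference, and its value also enters the 11.8-fold, of which 1 of the 2 tumors was measured above background. Against wild-type PBS livers, which had 11.65, 9.86 and 11.70, *Thrsp* fell by 2.82 in wild-type tumors (standard error 0.74, adjusted p = 0.00847, limma; exact permutation p = 0.1, the smallest possible with 3 against 3). This call was lost without the set B tumor (-1.74, adjusted p = 0.0875), with the 2 groups fitted alone (adjusted p = 0.0741) and with array weights (adjusted p = 0.0525). The tumor and PBS groups did not overlap, and the difference was -2.315 within set A and -3.79 within set B.

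The 250 bases before the RefSeq start of *Thrsp* (GRCm38.p6, chr7:97417551-97417800, minus strand) and of *Acly* (chr11:100528001-100528250, minus strand) are shown because these genes moved in opposite directions in wild-type tumors. Capitals mark the CCAAT box (CCAAT) and the GC box (GGGCGG) on either strand.
Thrsp: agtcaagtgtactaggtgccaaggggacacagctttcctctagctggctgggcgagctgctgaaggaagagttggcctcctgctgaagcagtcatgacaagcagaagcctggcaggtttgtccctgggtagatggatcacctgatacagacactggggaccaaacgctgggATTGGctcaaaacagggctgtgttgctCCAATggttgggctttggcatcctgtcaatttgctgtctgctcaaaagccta
Acly: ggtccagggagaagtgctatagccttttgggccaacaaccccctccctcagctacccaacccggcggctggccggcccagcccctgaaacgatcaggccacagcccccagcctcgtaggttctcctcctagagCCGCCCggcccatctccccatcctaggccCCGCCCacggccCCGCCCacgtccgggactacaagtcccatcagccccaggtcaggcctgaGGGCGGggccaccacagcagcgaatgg
The *Thrsp* window held 2 CCAAT boxes, 79 and 52 bases before the start, and no GC box, whereas the *Acly* window held 4 GC boxes, the nearest 27 bases before the start, and no CCAAT box. Of 32851 mouse windows of the same length, 33.8% held a CCAAT box and 32.7% a GC box. A sterol response element (TCACNCCAC) occurred in 1.05% and an E-box (CACGTG) in 6.02% of all windows, and neither was present in any of the 10 windows listed for 7 of the genes. *Fasn* had 3 CCAAT boxes at 90, 62 and 59 bases before its start and no GC box. Both CCAAT and GC boxes were present before starts of *Srebf1* and *Me1*. The windows of *Acaca*, which rose with *Acly* in wild-type tumors, and of *Elovl6* held neither. The windows of *Acaca* and *Fasn*, all 3 of *Srebf1* and 1 of 2 of *Me1* lie inside the annotated gene, and *Scd1* had no entry. A match is a description of the letters and not a binding site.

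*Acly* encodes ATP citrate lyase, which cleaves cytosolic citrate to acetyl-CoA. Wild-type tumors had 13.75 and 13.64 in set A and 13.13 in set B, against 12.32 to 13.21 (median 12.51) in wild-type DEN livers. Both set A tumors exceeded every DEN liver and the set B tumor lay inside the range of the livers. *Acly* rose by 0.89 (standard error 0.25, adjusted p = 0.0146, limma; exact permutation p = 0.0238), or 1.85-fold. It lost the call without either set A tumor (adjusted p = 0.0731 and 0.0629), and the difference was 0.93 within set A and 0.62 within set B. The *Chop*-/- tumors had 13.50 and 12.59, against 12.22 to 13.03 (median 12.54) in *Chop*-/- DEN livers, a difference of 0.48 (95% interval -0.11 to 1.08). Wild-type PBS livers had 13.74, 12.69 and 12.54, and the set A liver matched the highest tumor. The difference of wild-type tumors from them was 0.52 (95% interval -0.09 to 1.13), and without that liver it was 0.89 (adjusted p = 0.032).

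*Me1* encodes cytosolic malic enzyme, which supplies NADPH. Wild-type tumors had 10.75, 9.98 and 10.05, against 10.66 to 11.68 (median 10.95) in wild-type DEN livers and 12.18, 10.48 and 11.22 in wild-type PBS livers. One tumor, of set A, overlapped both groups of livers, and the other 2 lay below every liver. The difference was -0.84 from DEN livers (95% interval -1.50 to -0.17, adjusted p = 0.0636, limma) and -1.03 from PBS livers (95% interval -1.80 to -0.27, adjusted p = 0.0526), and both missed the threshold. Both passed it with array weights (adjusted p = 0.00498 and 0.0479) and with the array set as a fixed block (adjusted p = 0.0399 and 0.0339). The first also passed with the 2 groups alone (adjusted p = 0.0353) and on the authors' values with the replicate block (adjusted p = 0.0465), and the second with the array set as a random block (adjusted p = 0.044). The second *Me1* probe gave -0.86 and -1.18, the larger with an adjusted p of 0.0342 when each probe was tested by itself. The *Chop*-/- tumors had 10.25 and 10.84, within the 10.15 to 11.23 of *Chop*-/- DEN livers (median 10.88), and the difference was -0.31 (95% interval -1.06 to 0.44).

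*Acaca* encodes acetyl-CoA carboxylase 1, which commits acetyl-CoA to fatty acid synthesis. Wild-type tumors had 12.18, 12.28 and 11.85, against 10.60 to 11.60 (median 11.20) in wild-type DEN livers. Each wild-type tumor exceeded each DEN liver. The rise was 0.96 (standard error 0.29, adjusted p = 0.0170, limma; exact permutation p = 0.0119), or 1.95-fold, and the difference was 0.96 within set A and 0.90 within set B. The adjusted p was 0.0552 or 0.0758 without either set A tumor. Wild-type PBS livers spread more widely, at 12.09, 11.02 and 10.57, and the difference from them was 0.88 (95% interval 0.20 to 1.56, adjusted p = 0.0649). Without the set A liver, the highest of them, it was 1.31 (adjusted p = 0.00538), and within sets it was 0.14 in A and 0.84 in B. The 2 *Chop*-/- tumors stood apart, with 11.96 in set B and 10.54 in set C, on either side of the 10.98 to 11.59 (median 11.27) of *Chop*-/- DEN livers. Their difference was 0.00 (95% interval -0.67 to 0.67), and it was 0.71 or -0.70 when 1 tumor was left out.

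*Fasn* encodes fatty acid synthase, which polymerizes malonyl-CoA to palmitate. Its probe was dim and was not detected on 2 of 24 arrays, so that its fold changes may be understated. Wild-type tumors had 6.49, 6.74 and 6.13, against 5.41 to 6.69 (median 6.13) in wild-type DEN livers and 7.25, 5.87 and 5.31 in wild-type PBS livers. The *Chop*-/- tumors had 6.28 and, not detected, 4.94, against 4.80 to 6.41 (median 5.89) in *Chop*-/- DEN livers. The groups overlapped in each comparison, and the differences were 0.40 (95% interval -0.41 to 1.20), 0.31 (-0.62 to 1.24) and -0.24 (-1.16 to 0.67) for wild-type tumors against DEN livers, wild-type tumors against PBS livers and *Chop*-/- tumors against DEN livers.

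*Elovl6* encodes the elongase that lengthens palmitate to stearate. It had 10.07 and 9.51 in *Chop*-/- tumors, against 9.41 to 10.30 (median 9.86) in *Chop*-/- DEN livers, and 10.02, 10.08 and 9.58 in wild-type tumors, against 9.41 to 10.41 (median 9.98) in wild-type DEN livers. The differences of -0.08 (95% interval -0.84 to 0.68) and -0.07 (-0.74 to 0.59) were within the spread of the livers. Wild-type PBS livers ranged over 11.55, 9.28 and 10.41, and wild-type tumors differed from them by -0.52 (95% interval -1.29 to 0.25). Without the lowest of these livers, that of set B, the difference was -1.09 (adjusted p = 0.0248), and without the highest, that of set A, it turned to 0.049.

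*Scd1* encodes the desaturase that makes oleate from stearate, and its probe was the brightest of the set B *Chop*-/- tumor array, at 15.18. Quantile normalization gives each array the same highest value, so differences among the brightest probes reflect their rank. Across all arrays its brightness ranked between 1 and 31 of 25697 probes, at the top of the scale, where differences may be compressed. It had 15.18 and 14.78 in *Chop*-/- tumors, against 14.57 to 15.13 (median 14.96) in *Chop*-/- DEN livers. Wild-type tumors had 15.06, 14.84 and 15.06, against 14.60 to 15.09 (median 14.88) in DEN livers and 14.98, 14.86 and 14.83 in PBS livers. The groups overlapped, and the differences were 0.11 (95% interval -0.22 to 0.43) for *Chop*-/- tumors, and 0.11 (-0.17 to 0.40) and 0.10 (-0.23 to 0.42) for wild-type tumors against DEN and PBS livers.

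Counted over the group, *Chop*-/- tumors had 0 of 8 genes higher and 2 lower than *Chop*-/- DEN livers, where 39.4% of all genes tested passed, 19.1% higher and 20.3% lower. Wild-type tumors had 2 of 8 higher and 1 lower than wild-type DEN livers, where 22.3% passed, 12.1% higher and 10.2% lower. Against wild-type PBS livers they had 0 of 8 higher and 1 lower, where 19.3% passed, 10.8% higher and 8.42% lower. The share called was thus below that of all genes in 2 of these comparisons and above it in wild-type tumors against DEN livers. The arrays of both groups did not overlap for 1, 2 and 1 of the 8 genes in these comparisons, against 40.6%, 22.4% and 27.6% of all genes. The 2 comparisons of wild-type tumors share the tumor arrays. The median difference over the group was -0.16 in *Chop*-/- tumors against their livers (all genes -0.05), 0.02 in wild-type tumors against DEN livers (all genes -0.01) and -0.13 against PBS livers (all genes 0.00).

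**Figure D2:**
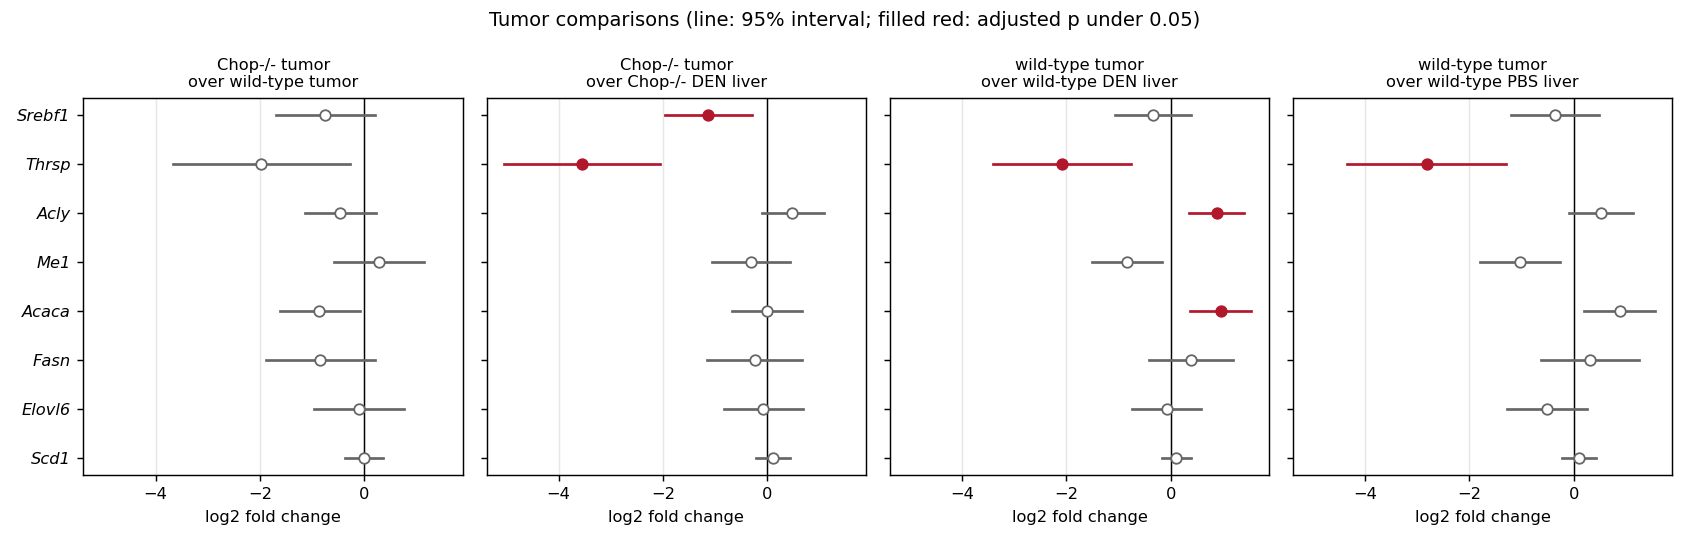
Log2 fold changes of the 8 genes in the 4 comparisons that involve tumors, with 95% intervals from the limma fit. Filled red points have an adjusted p under 0.05. Thrsp has the lowest difference in each panel and reaches -3.55 in Chop-/- tumors over Chop-/- DEN livers, and no gene is filled between the tumors of the 2 genotypes.

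Between the genotypes, tumors were compared to ask how established tumors of *Chop*-/- and wild-type mice differed. None of the 8 genes passed the test, where 10.5% of all genes did, and 2 of 8 had an unadjusted p under 0.05, where 26.4% of all genes did. *Thrsp* differed by -1.97 (95% interval -3.67 to -0.27, adjusted p = 0.125, limma), *Acaca* by -0.86 (-1.62 to -0.09, adjusted p = 0.136), *Fasn* by -0.84 (-1.88 to 0.20), *Srebf1* by -0.75 (-1.70 to 0.20) and *Acly* by -0.46 (-1.14 to 0.22). Of the 8 differences, 7 were below 0, with a median of -0.60, against -0.03 over all genes. No exact permutation test of 2 tumors against 3 can go below 0.1, and the lowest of these genes was 0.2. Within set B, which held 1 tumor of each genotype, 6 of the 8 differences were above 0, among them *Acly* at 0.37, *Fasn* at 0.16 and *Acaca* at 0.10. *Srebf1* was lower there, at -0.82, and *Thrsp* was not detected in the *Chop*-/- tumor and gives no exact difference. Leaving out the set B wild-type tumor gave a *Thrsp* difference of -3.05 (adjusted p = 0.00713), and leaving out the set B *Chop*-/- tumor gave an *Acaca* difference of -1.56 (adjusted p = 0.00731). Other leave-outs made these differences smaller, as *Thrsp* was -1.02 without the set B *Chop*-/- tumor and *Acaca* -0.15 without the set C *Chop*-/- tumor.

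The change from DEN liver to tumor was also compared between genotypes. The interaction was -0.96 for *Acaca* (95% interval -1.85 to -0.07, adjusted p = 0.193, limma), -1.47 for *Thrsp* (-3.47 to 0.52) and 0.53 for *Me1* (-0.47 to 1.53). None of the 8 passed, where 4.69% of all genes did, and 1 had an unadjusted p under 0.05, where 21.8% did, so that the rise of *Acly* and *Acaca* in wild-type tumors was not shown to differ from the change in *Chop*-/- tumors. Without the set B *Chop*-/- tumor the *Acaca* interaction was -1.67 (adjusted p = 0.0114), and without the set C *Chop*-/- tumor it was -0.26.

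Other cell types differed between tumors and livers, and markers are counted as higher or lower where they passed the threshold. The shares of all genes that passed are given above. The summed signal of 8 Kupffer cell markers was 1110 to 1300 in *Chop*-/- tumors, against 1710 to 2230 in their DEN livers. There 4 of 8 were lower and 0 higher, and *Marco* and *Timd4* were not detected in the tumors. *Adgre1*, *C1qb* and *C1qc* differed by 0.41, 0.66 and 0.26 without passing. Sums weigh bright markers most, here *Clec4f* and *Vsig4* (means of 9.37 and 9.22 in *Chop*-/- DEN livers). In wild-type tumors the Kupffer cell sum was 1610 to 2510, against 2170 to 3980 in DEN livers, with 4 of 8 lower. *Adgre1*, *C1qb* and *C1qc* differed by 0.06, 0.06 and 0.04 there. The sum of 3 erythroid markers was 20800 to 39800 in *Chop*-/- tumors, against 9100 to 16000 in their DEN livers, with 2 of 3 higher and 1 lower. The sum of 5 endothelial markers was 1700 to 3420 in *Chop*-/- tumors and 4040 to 5280 in their livers, with 2 of 5 higher and 3 lower. *Lyve1* rose by 2.24 and *Pecam1* by 1.81. *Clec4g*, the brightest (mean 11.95 in the livers), fell by 1.82, *Oit3* by 1.07 and *Stab2* by 0.49, so the sum mainly followed *Clec4g*. In wild-type tumors the endothelial sum was 3980 to 7960, against 4310 to 5490 in DEN livers, with 2 of 5 higher. The sum of 7 stellate cell markers was 5030 to 6930 in *Chop*-/- tumors, where *Lrat* was not detected, and 6650 to 8290 in their livers, with 2 of 7 higher and 3 lower. Between tumors, the erythroid sum of 20800 to 39800 in *Chop*-/- stood against 6320 to 13000 in wild-type tumors. The part of these cells in the values of the lipogenesis genes was not tested.

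In PBS-treated livers, *Chop*-/- and wild-type mice were compared in the absence of DEN. None of the 8 genes passed, where 0.0223% of all genes did, and 0 had an unadjusted p under 0.05, where 10.5% did. The differences lay between -0.87 for *Thrsp* (95% interval -2.39 to 0.65) and 0.21 for *Acaca* (-0.47 to 0.90). *Thrsp* had 10.45, 9.38 and 10.78 in *Chop*-/- livers, against 11.65, 9.86 and 11.70 in wild-type livers, and the groups overlapped. The summed Kupffer cell markers were 1130 to 1690 in these *Chop*-/- livers and 2860 to 3490 in the wild-type livers. All 8 markers had differences below 0, with a median of -0.98 (all genes 0.01). Of the markers, 7 had an unadjusted p under 0.05, where 10.5% of all genes did, and 1 passed the threshold. The part of these cells in the values of the lipogenesis genes was not tested. In DEN-treated livers, none of the 8 lipogenesis genes passed either, where 0.0223% of all genes did, and 0 had an unadjusted p under 0.05, where 1.68% did. The differences there lay between -0.49 for *Thrsp* (95% interval -1.53 to 0.54) and 0.11 for *Acaca* (-0.36 to 0.57).

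DEN-treated and PBS-treated whole livers were also compared within each genotype, months after the single injection. In *Chop*-/- mice none of the 8 genes passed, where 0.0223% of all genes did, and 0 had an unadjusted p under 0.05, where 7.92% did. There *Me1* differed by -0.58 (95% interval -1.22 to 0.07) and *Fasn* by -0.47 (-1.26 to 0.32). In wild-type mice none of 8 passed, nor did any of the 8969 genes (0% in the limma fit), and 0 of 8 had an unadjusted p under 0.05, where 2.74% of all genes (246) did. All 8 wild-type differences were below 0, from -0.74 for *Thrsp* (95% interval -2.06 to 0.57), -0.45 for *Elovl6* (-1.11 to 0.22) and -0.37 for *Acly* (-0.90 to 0.16) to -0.02. Without the set A PBS liver, *Elovl6* differed by 0.12 and *Acly* by 0.005. The wild-type PBS livers enter 3 of the comparisons and the wild-type DEN livers 4, the interaction included, so these results are not independent of each other.

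**Figure D3:**
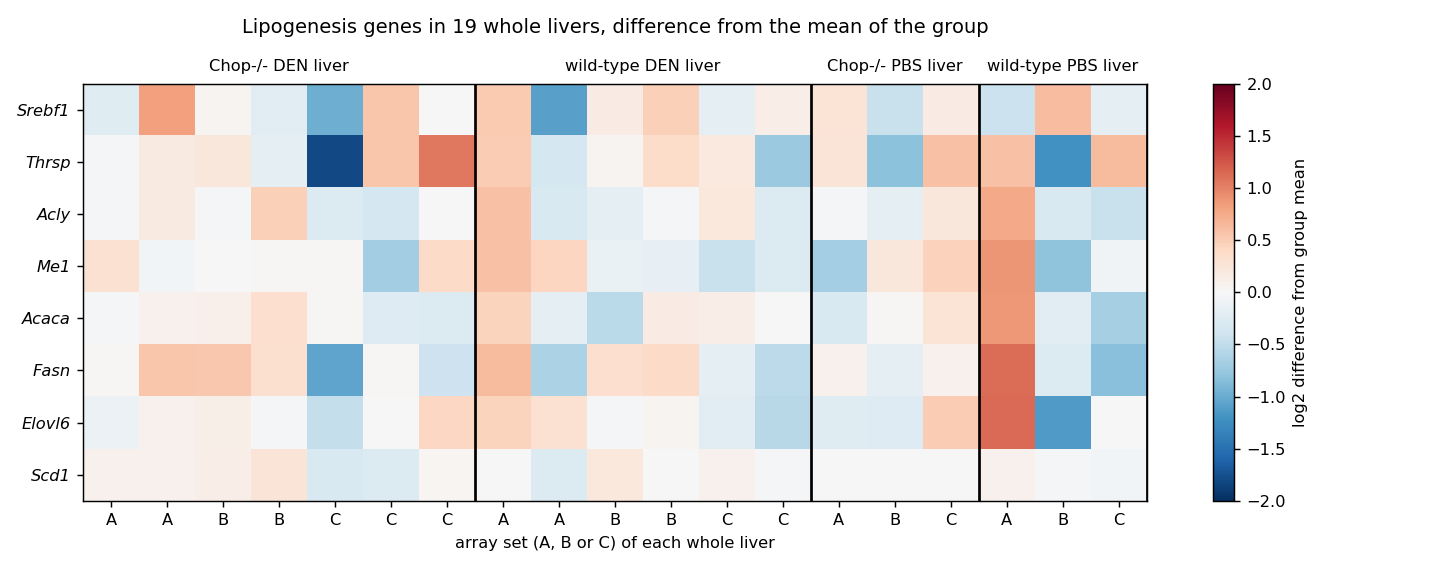
Difference of each lipogenesis gene from the mean of its group in the 19 whole livers, on the log2 scale, with red above and blue below the group mean. The letters give the array set. The set A wild-type PBS liver lies above its group mean for 7 of the genes and below it for Srebf1.

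Mice of 1 group differed from each other in several of these genes at once. Over 19 livers, after subtraction of group means, 25 of the 28 pairs of genes correlated positively, with a median Pearson's r of 0.43 and a range of -0.44 to 0.84. The share of such pairs among all genes was not computed, so whether these genes vary together more than others was not tested. Permuting livers within groups, 5 pairs had an adjusted p under 0.05 over the 28 pairs by r and 4 by Spearman's rho. *Acly* and *Acaca* had r = 0.84 (permutation p = 0.00041, adjusted 0.0115) and rho = 0.72 (permutation p = 0.004, adjusted 0.0392), with r = 0.70 without the 2 livers farthest from the median of *Acly*. Their r was 0.94, 0.72 and 0.72 within sets A, B and C. *Thrsp* and *Elovl6* had r = 0.71 (permutation p = 0.0011, adjusted 0.0154) and rho = 0.73 (permutation p = 0.0025, adjusted 0.0392), with r = 0.59 without the 2 farthest livers and 0.49, 0.89 and 0.80 within the sets. *Acly* and *Fasn* had r = 0.75 (permutation p = 0.0039, adjusted 0.0364) and rho = 0.69 (permutation p = 0.007, adjusted 0.049). *Srebf1* was the exception by r, with values between -0.44 (*Me1*) and 0.46 (*Fasn*) and no pair past the adjustment. By rho neither *Srebf1* nor *Me1* had such a pair.

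The set A wild-type PBS liver was the highest of its group in *Acly*, *Me1*, *Acaca*, *Fasn*, *Elovl6* and *Scd1*, and it had 8.38 for *Srebf1*, the lowest. The set C *Chop*-/- DEN liver with 8.02 for *Thrsp* also had the lowest *Fasn* (4.80, not detected), *Srebf1* (7.86) and *Elovl6* (9.41) of its group. Across these livers the genes outside the group whose deviations were most like the mean of the 8 were *Slc47a1* (r = 0.86), *Ermp1* (0.83), *Robo1* (0.83), *Cyp2b9* (0.82), *Snrpn* (0.81), *Mogat1* (0.80), *Gpt2* (0.78), *Mknk2* (0.78), *Gpm6a* (0.78) and *Per2* (0.76), each over 19 livers. *Mogat1* encodes an acyltransferase of glyceride synthesis, and *Per2* a circadian repressor. The least alike were *Slc25a33* (r = -0.81), *Thoc3* (-0.80), *Aox3* (-0.79), *Abca8a* (-0.78) and *Imp3* (-0.77). These are the extremes of all genes tested and carry no test.

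Genes of related pathways were described as lists, beside the shares of all genes given above. Of 13 genes tested that supply carbon or NADPH, 8 were lower in *Chop*-/- tumors than in their DEN livers, 4 in wild-type tumors against DEN livers and 4 against PBS livers, and 0 were higher in any of these. *Cs*, which encodes the mitochondrial citrate synthase, averaged 8.78 ± 0.40 in *Chop*-/- tumors (n = 2) and 9.90 ± 0.17 in their livers (n = 7). It fell by 1.12 there (adjusted p = 5.63e-05, limma) and fell by 0.65 in wild-type tumors against DEN livers (adjusted p = 0.00591). *Slc2a2*, the main hepatocyte glucose transporter, fell by 1.85, *Dlat*, a subunit of pyruvate dehydrogenase, by 1.25 and *Pklr*, the liver pyruvate kinase, by 1.05 in *Chop*-/- tumors. In wild-type tumors *Mdh1*, cytosolic malate dehydrogenase, fell by 1.16 and *Pcx*, pyruvate carboxylase, by 0.63 against DEN livers. The median of the list was -0.77, -0.57 and -0.68 in the 3 comparisons.

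**Figure D4:**
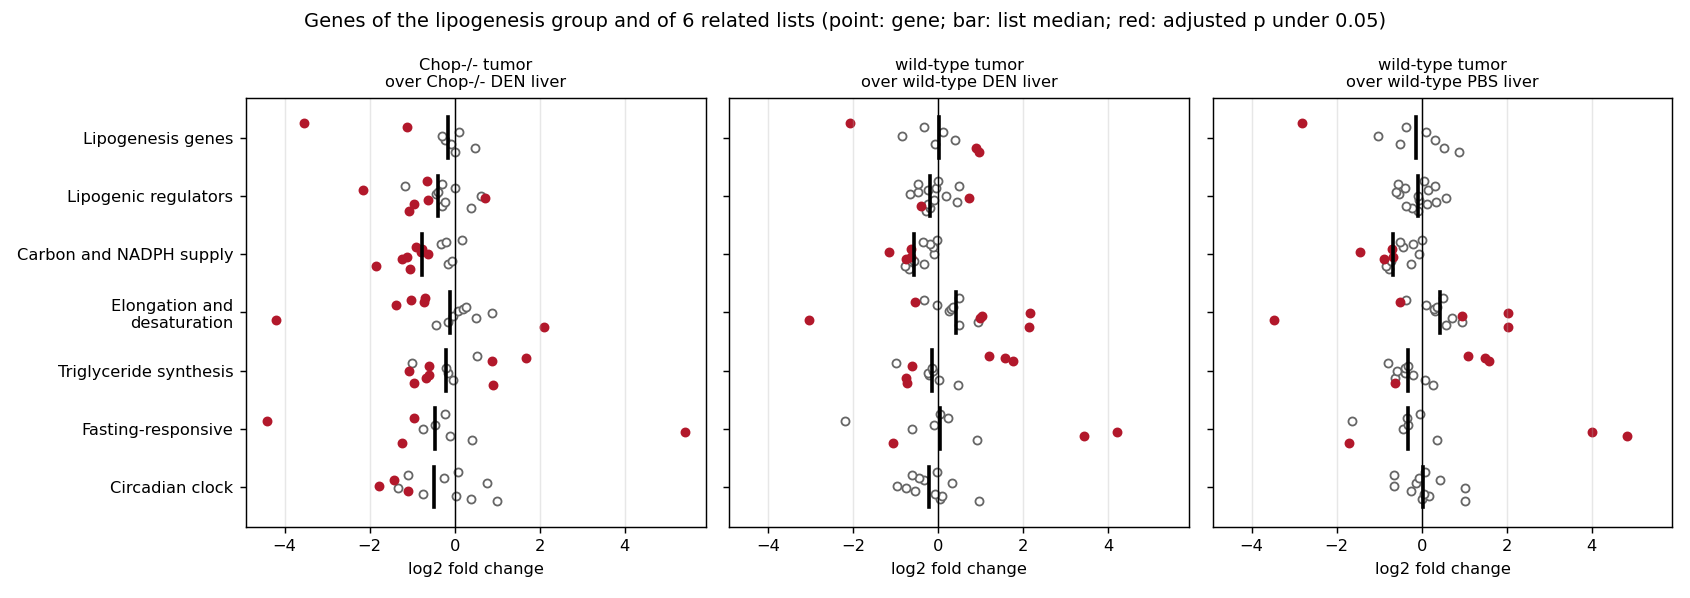
Log2 fold changes of the lipogenesis genes and of the genes of 6 related lists in 3 tumor comparisons, as fitted by limma. Each point is a gene, the bar is the median of the list, and red points have an adjusted p under 0.05. The carbon and NADPH list has its median left of 0 in each panel, at values of -0.77, -0.57 and -0.68.

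Of 14 genes of elongation and desaturation tested, wild-type tumors had 4 higher and 2 lower than DEN livers, with a median of 0.41. Against PBS livers they had 3 higher and 2 lower, with a median of 0.43. The related carboxylase gene *Acacb* had no probe and was not tested. *Chop*-/- tumors had 1 higher and 5 lower than their livers, with a median of -0.11. *Fads2*, the delta-6 desaturase, rose by 2.15 (adjusted p = 0.00459, limma) and *Fads1*, the delta-5 desaturase, by 1.02 (adjusted p = 0.0078) in wild-type tumors against DEN livers. *Scd2*, a stearoyl-CoA desaturase that adult liver expresses little, was at least 3.22-fold higher in wild-type tumors than in wild-type DEN livers, where its probe was not detected. *Scd2* rose by 2.10 in *Chop*-/- tumors against their livers. Its probe was detected on only 8 arrays of the series, so some of those livers lay at background and the 2.10 is not exact. *Elovl3*, an elongase of very long chains, fell by 3.05 in wild-type tumors against DEN livers (adjusted p = 2.24e-05), and it was not detected in *Chop*-/- tumors, where it was at least 10.2-fold lower than in their livers. *Tecr*, the last reductase of the elongation cycle, fell by 1.14 (adjusted p = 0.0246) and *Cyb5r3*, which passes electrons to desaturases, by 1.11 (adjusted p = 0.0169) in *Chop*-/- tumors against wild-type tumors. Their interactions were -1.35 (adjusted p = 0.0402) and -1.18 (adjusted p = 0.0457).

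Among 13 genes of triglyceride synthesis, 3 were higher and 5 lower in *Chop*-/- tumors than in their DEN livers, and 3 were higher and 3 lower in wild-type tumors than in DEN livers, with 3 higher and 1 lower against PBS livers. *Acsl4*, an acyl-CoA synthetase that prefers polyunsaturated chains, rose by 1.68 in *Chop*-/- tumors (adjusted p = 9.42e-06, limma) and by 1.57 in wild-type tumors against DEN livers (adjusted p = 1.49e-05). *Acsl3* rose by 1.75 and *Acsl5* by 1.19 in wild-type tumors. *Gpat4*, which begins glycerolipid synthesis, fell by 0.97 in *Chop*-/- tumors (adjusted p = 3.09e-05). Of 15 lipogenic regulators, 1 was higher and 5 lower in *Chop*-/- tumors against their livers, 1 higher and 1 lower in wild-type tumors against DEN livers, and 0 passed against PBS livers. *Mlxipl*, which encodes the glucose-responsive factor ChREBP, fell by 1.07 in *Chop*-/- tumors (adjusted p = 0.00304), and *Ppargc1b*, a coactivator of SREBP-1, fell by 2.16 there and by 1.78 in *Chop*-/- tumors against wild-type tumors (adjusted p = 0.0261). *Insig1*, a sterol-regulated retainer of SREBP, rose by 0.71 in *Chop*-/- tumors and by 0.73 in wild-type tumors.

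Of 9 fasting-responsive genes, 1 was higher and 3 were lower in *Chop*-/- tumors than in their livers, and 2 were higher and 1 lower in wild-type tumors against DEN livers and against PBS livers. *Igfbp1*, an insulin-suppressed hepatokine, rose by 5.41 in *Chop*-/- tumors (adjusted p = 6.66e-05, limma) and by 4.21 in wild-type tumors against DEN livers (adjusted p = 0.00053). *Fgf21*, a stress- and fasting-induced hormone, rose by 3.43 in wild-type tumors against DEN livers. It averaged 7.61 ± 2.72 in *Chop*-/- tumors (n = 2) and 10.85 ± 0.36 in wild-type tumors (SD, n = 3), and fell by 3.24 in *Chop*-/- tumors (adjusted p = 0.0352, limma). *Pck1*, the gluconeogenic enzyme, fell by 1.24 in *Chop*-/- and 1.07 in wild-type tumors against DEN livers. *Cyp4a14* differed by -4.42 in *Chop*-/- tumors against their livers (adjusted p = 0.000578, limma). In wild-type tumors against DEN livers it differed by -2.2 and missed the threshold (adjusted p = 0.0544, limma). *Tat* was not detected in *Chop*-/- tumors, where it was at least 1.22-fold lower than in their livers. Of 12 clock genes, 3 were lower in *Chop*-/- tumors than in their livers, where 20.3% of all genes were lower. These were *Tef* by 1.78, *Nr1d1* by 1.44 and *Cry2* by 1.09. In wild-type tumors 0 passed against either liver, and 0 passed between tumors of both genotypes or in the tumor interaction. None of these 6 lists had a gene past the threshold in any of the 4 comparisons between whole livers.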

How the data were processed

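Each of 24 livers or tumors was profiled on its own Illumina bead array (MouseRef-8 v2.0). The intensities were deposited by the authors as exported from GenomeStudio 2011.1, already background subtracted (26.9% were below 0) and sharing 1 distribution. Each detection p-value was deposited by the authors beside its intensity. The log2 values deposited by the authors served as an alternative. A further 48 columns of bead counts and bead errors were not used. Scanner columns name a group and not a sample, as listed in a supplement of the study; for 24 of 24 the best-matching column of the authors' table carried that group's label. Intensities were corrected and quantile normalized with neqc (limma 3.58.1, R 4.3.3, statmod 1.5.0; offset 16), a filter required detection (p under 0.01) on 2 or more arrays, and a gene was represented by its brightest probe. A single limma fit covered the 6 groups and 24 arrays, with Benjamini-Hochberg adjustment over 8969 genes. The fit was tested on simulated data. Single values also had exact permutation tests, and correlations 100000 permutations within groups. Promoters were from RefSeq (GRCm38.p6).

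The lipogenesis genes and the related lists were chosen with earlier results of these data known. All 8 were named with each probe. Of a related list, genes with the largest changes among those past the threshold were named, up to 4 in a comparison. A gene undetected on every array of a group is given as a bound against the lowest detected signal. Alternatives covered background, normalization, filters, probe choice, samples fitted, weights, array set, offset, the replicate number and each array left out. The number of arrays limits the precision.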

Additional observations from a re-analysis of the deposited data

Results flagged for a closer look

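One value stood apart from its group. *Me1* was 10.15 in a set C *Chop*-/- DEN liver, against 10.80 to 11.23 in the other 6 livers of that group, and the gap was 0.596 of the whole range, above the limit of 0.568 for 7 samples. This was 1 of 16 groups of values tested, where chance flags about 1 in 20.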

How the results depend on the processing

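Of 889 single values computed under an alternative, 837 kept their direction and side of the threshold, 21 gained and 12 lost the call, and 19 turned sign; the cause was not tested. For wild-type tumors over wild-type PBS livers the count of genes called was 1, and it was 2 with detection on at least 12 arrays, with the mean of a gene's probes, with array weights, with the array set as a fixed or random block and with an offset of 50, and 0 when the 2 groups were fitted alone. Leaving out 1 array gave 0 (without the set B tumor) to 3 (without the set A or the set B liver). For wild-type tumors over wild-type DEN livers it was 3, and 4 with array weights, with the array set as a fixed block, with the 2 groups alone and on the authors' log2 values with the replicate block, *Me1* being the gene added. With 1 array left out it was 1 (without a set A tumor) to 4 (without a set C liver). For *Chop*-/- tumors over their DEN livers it was 2, and 1 on the authors' log2 values with the replicate block, with no filter on dim probes and with array weights, and 1 (without the set C tumor) to 2 with 1 array left out. The count was 0 between tumors and 0 for the interaction, and 0 to 1 for each with 1 array left out. It was 0 under each alternative in the 4 comparisons between whole livers. Of 43 pairs of arrays with the same replicate number, 10 correlated over 0.1 after subtraction of group means (median 0.0311). Among 187 pairs with different numbers, 34 did (median -0.0101). Whether equal numbers mark a shared animal or batch was not tested. The replicate block changed no other count by over 1.5 times.

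Signs turned for small differences. *Scd1* in wild-type tumors over PBS livers was -0.004 with array weights. In *Chop*-/- tumors over their livers, *Acaca* was -0.008 with median scaling and -0.053 on the authors' log2 values with the replicate block, and *Elovl6* was 0.039 with the array set as a fixed block. With 1 array left out, those over *Chop*-/- DEN livers ranged from -0.704 to 0.707 for *Acaca*, -0.917 to 0.428 for *Fasn*, -0.36 to 0.199 for *Elovl6* and -0.091 to 0.302 for *Scd1*. In wild-type tumors over PBS livers the ranges were -0.111 to 0.862 for *Fasn* and -1.088 to 0.049 for *Elovl6*, and over DEN livers -0.186 to 0.083 for *Elovl6*. *Acaca* in *Chop*-/- over wild-type livers ranged from -0.115 to 0.649 with PBS and from -0.002 to 0.197 with DEN. In wild-type DEN over PBS livers the ranges were -1.013 to 0.124 for *Elovl6* and -0.593 to 0.005 for *Acly*.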
